A study of Mus musculus with 4 samples.

Results

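Ribosomal proteins are the protein parts of the cytosolic ribosome, which reads messenger RNA and joins amino acids into protein. The small subunit, whose proteins carry names beginning with Rps, decodes the message, and the large subunit, whose proteins carry names beginning with Rpl, forms the peptide bond and holds the exit tunnel for the new chain. Many of their messenger RNAs begin with a cytosine followed by further pyrimidines, the terminal oligopyrimidine tract, through which the TOR kinase pathway adjusts their translation. In neurons, ribosomes are found in the cell body and in dendrites, and Purkinje cells, with their large cell bodies and dendritic trees, are rich in them. The members described here were all probe sets, the groups of probes that each give 1 value on an Affymetrix array, whose only gene symbol was that of a cytosolic ribosomal protein or of a paralog with a ribosomal name. The symbol had to be Rpl or Rps followed by a number and at most a short ending, or Rplp0, Rplp1, Rplp2 or Rpsa. The rule used names only and no measured value. It found 105 probe sets of 49 genes, out of 34945 probe sets with 1 gene symbol, which covered 18193 genes, and 45101 probe sets in all. By the first letters of the symbol, 48 probe sets of 26 genes were counted under the large subunit. Under the small subunit were 57 probe sets of 23 genes. Paralogs such as Rpl7l1 were included in these counts. There were 25 genes with 1 probe set and 24 genes with several, up to 6.

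The study measured RNA of Purkinje cells, the inhibitory output neurons of the cerebellar cortex, which were captured with a laser from sections of frozen brain of intact male C57BL/6J mice 8 weeks of age. There was 1 group of 4 samples, 2 per animal from 2 untreated animals, called 1-1, 1-2, 2-1 and 2-2 with the animal's number first. Nothing in the labels says that both samples of an animal were captured separately, so p-values measure only the spread between these samples, which may be technical. The RNA came from about a nanogram per sample and was amplified before labelling. The sources used here do not say how Purkinje cells were recognized for cutting. Granule cell layer samples, named in the series' design, were not analysed here. Each probe set was compared with background, the probe sets of 1 gene with each other, the samples in pairs, and animal 2 with animal 1.

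The deposited values are signals on a linear scale. Their median over all probe sets ran from 8.40 in sample 1-1 to 11.4 in sample 2-2, and both arrays of animal 2 were brighter than both of animal 1, so levels and differences were taken from quantile-normalized log2 signals. Below, 4 values in a row are deposited signals in samples 1-1, 1-2, 2-1 and 2-2, a value with ± SD is a normalized log2 level over 2 animals, and one with ± SE is a normalized log2 difference. Every value is limited in precision by the small number of arrays. Background was judged on each array from 74 measured genes specific to organs other than brain, whose 95th percentile, the bound, lay between 5.81 and 6.13 on the log2 scale. A probe set above the bound on all 4 arrays is called detected. Of 18 measured Purkinje cell markers, 17 were detected, with Calb1, calbindin, at deposited signals from 10986.8 to 16040.7. Some markers of other cerebellar cells were also detected. They were 7 of 19 granule cell genes, 12 of 17 Bergmann glia and astrocyte genes, 5 of 13 interneuron genes, 4 of 14 oligodendrocyte genes, 2 of 14 vessel genes and 1 of 13 microglia genes. What part these cells have in the ribosomal signals was not tested, and in such bulk samples fewer cells of a type and less RNA per cell cannot be told apart.

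The sequences around the transcription start were read first, because the pyrimidine tract is the letter feature this gene family is known for. RefSeq windows on build GRCm38.p6, from 10 bases before to 20 bases after the annotated start, were matched for 43 of the 49 genes, in 51 windows, since a gene can have several starts. The genes Rps20, Rps29, Rpl8, Rpl7, Rps14 and Rps4l were not matched. A tract was counted where a C was followed by at least 5 more pyrimidines (C or T) on the strand that reads like the message. Tracts lying wholly before the annotated start, as in Rps27l, were counted too, although the annotated message would not contain them. So were tracts inside the message, as in Rpl11, where it began 14 bases after the start. The counts are therefore not counts of terminal tracts. The 8 windows below show it in capitals, 5′ to 3′, for genes on which the results turn and for paralogs with and without it.
Rpl13a: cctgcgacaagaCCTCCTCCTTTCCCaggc
Rpl35: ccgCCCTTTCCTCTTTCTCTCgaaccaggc
Rps6: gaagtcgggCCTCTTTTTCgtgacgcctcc
Rpl38: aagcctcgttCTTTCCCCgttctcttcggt
Rps27: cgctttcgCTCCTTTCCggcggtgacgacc
Rps27l: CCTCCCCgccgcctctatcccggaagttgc
Rpl22l1: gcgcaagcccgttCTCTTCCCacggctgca
Rpl3l: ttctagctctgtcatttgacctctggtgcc
These lie at chr7:45128726-45128755 (minus strand) for Rpl13a, chr2:39005112-39005141 (minus) for Rpl35 and chr4:86857348-86857377 (minus) for Rps6. They lie at chr11:114668570-114668599 (plus) for Rpl38, chr3:90213629-90213658 (minus) for Rps27 and chr9:66946076-66946105 (plus) for Rps27l. They lie at chr3:28805498-28805527 (plus) for Rpl22l1 and chr17:24727816-24727845 (plus) for Rpl3l, whose window held no such tract.

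In Rpl38 the tract began at the annotated start itself, in Rps6 1 base before it and in Rpl13a 2 bases after it. Tracts were 14 bases long in Rpl13a, 18 in Rpl35, 10 in Rps6 and 9 in Rps27. Of the 51 windows 26 (51.0%) held a tract, against 22.1% of 21263 windows of all coding genes in the same table, 30 bases long each. Counted by gene, 25 of 43 members (58.1%) did, against 25.2% of 17492 coding genes. On the other strand the shares were 11.8% of the members' windows and 24.9% of all windows. Among the members, then, the tract stood more often on the strand that reads like the message than on the other. Short motifs were looked for on either strand in the table's whole promoter sequences, which are 300 bases long, mostly before the start, and include these windows. The letters CCGGAA, the core that ETS family factors are known to bind, were found in 54.9% of the members' 51 promoter sequences and in 18.7% of all 21263. The letters ATGGCG, the core of the YY1 motif, were in 31.4% and 10.9%. Read on the other strand CCGGAA is TTCCGG, whose first letters can belong to a tract, and 1 end letter can be shared between CCGGAA and ATGGCG. These matches describe the letters only and say nothing of binding or translation in these cells.

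The first comparison asked which ribosomal protein genes stood out from background. Most did. Of the 105 probe sets 76 were detected, 7 passed the bound on some arrays only and 22 passed it nowhere, where 19.3% of all probe sets with 1 symbol were detected. Counted by gene, 40 of 49 had at least 1 detected probe set, where 26.9% of all genes had their brightest probe set detected. Both subunits were represented, with 21 of 26 large subunit genes and 19 of 23 small subunit genes. Deposited signals of the detected probe sets ran from 51.5 for Rps27l to 8380.3 for Rps29, a zinc-binding protein of the small subunit head. The median SD over animals of these probe sets was 0.12.

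The outcome went with the probe set's name suffix, which states how its probes match. Under the platform's naming, _at marks probes made for 1 transcript, _a_at probes that match several transcripts of 1 gene, _s_at probes shared between different transcripts, and _x_at sets in which some probes also match other sequences. Of 28 _a_at probe sets 27 (96.4%) were detected, where 27.8% of all _a_at probe sets were. Of 40 _x_at probe sets 36 (90%) were, against 36.4% of all of that suffix, and of 3 _s_at probe sets all 3, against 35.8%. Of 34 _at probe sets 10 (29.4%) were, against 15.6% of all _at probe sets, while 18 lay below the bound on every array. The _at sets were thus the 1 class of ribosomal probe sets of which most were not detected. The same split held inside genes. In 11 genes with an _at and another kind of probe set, 4 of 14 _at sets and 29 of 32 others were detected.

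**Figure D1:**
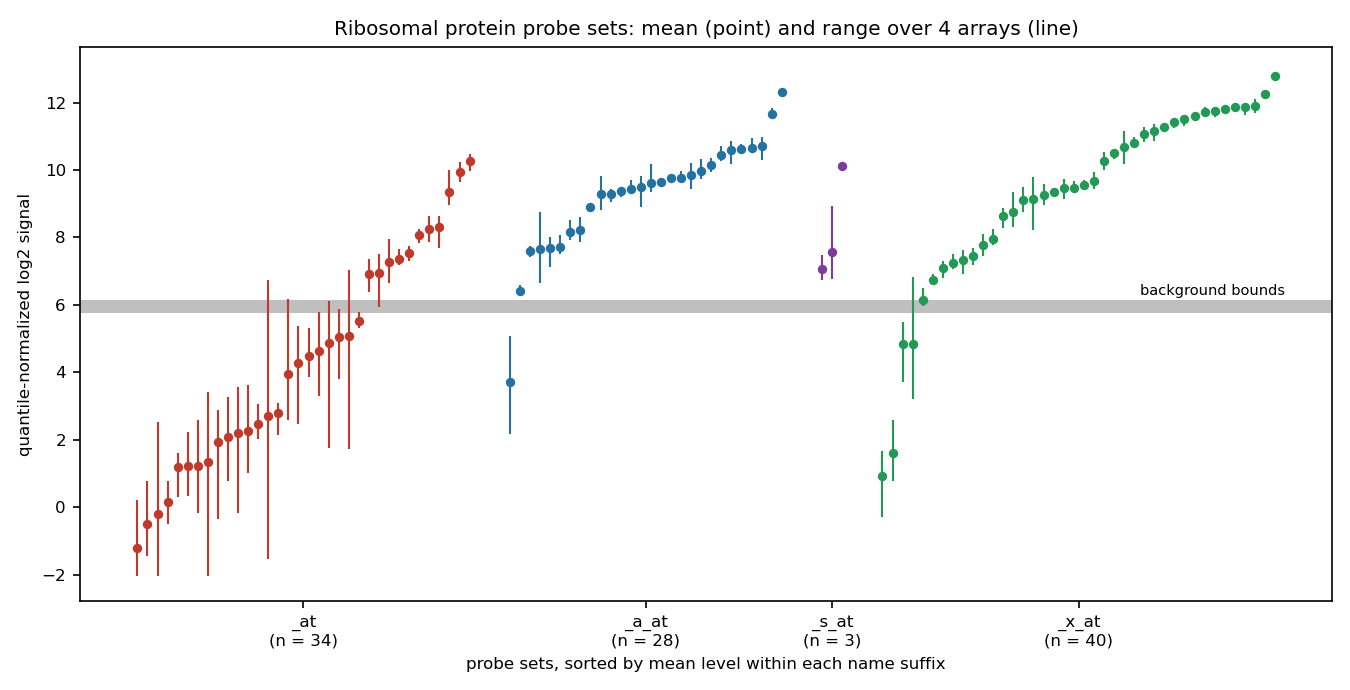
Quantile-normalized log2 signal of all 105 ribosomal protein probe sets, grouped by name suffix and sorted by mean, with points for the mean over 4 arrays and lines from the lowest to the highest array; the grey band spans the 4 arrays' background bounds (5.81 to 6.13). All but 1 of the 28 _a_at sets and all but 4 of the 40 _x_at sets lie above the bound of every array, and 10 of the 34 _at sets do.

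Because _x_at and _s_at probes can catch RNA of other genes, and ribosomal protein genes have many processed pseudogenes, levels from these sets are uncertain as to their source. Among the 62 probe sets of the other suffixes 37 were detected, in 31 genes. The genes with a bright _x_at set and no other detected kind are therefore the least certain, such as Rps20, a protein of the small subunit head. Its _x_at set 1456436_x_at gave 3267.1, 3297.5, 3956.4 and 4520.9. Its sets 1421935_at (33.3, 13.1, 16 and 35.5) and 1450417_a_at (17.7, 4.4, 10.3 and 44.9) were below the bound on every array. No sample of either dim set reached the level of any sample of the bright one.

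In 12 genes at least 1 probe set was detected while at least 1 stayed below the bound throughout. One of these was Rps18, which sits in the small subunit head near the transfer RNAs. Its set 1455572_x_at gave 3113.4, 2983.0, 3865.5 and 4756.9 and its set 1435712_a_at gave 576.2, 506.5, 774.3 and 840.2. Its other sets, 1421837_at, 1421838_at and 1450390_x_at, stayed between 0.2 and 5.4 in all samples. Rpsa, also known as the laminin receptor precursor, showed the split within a single suffix, since both its sets are _at sets listed under the same transcript. Set 1448245_at gave 1016.7, 864.1, 1531.7 and 1744.5, and set 1416196_at gave 0.3, 0.4, 1.7 and 1.1. All 4 samples were bright in the former and all 4 at the low end in the latter, so the suffix alone did not mark which set responded.

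Rps4x, a small subunit protein encoded on the X chromosome, had 1416276_a_at at 1046.5, 1276.6, 1771.5 and 1600.2 and 1420303_x_at at 0.7, 2.0, 3.0 and 3.0. Here the dim set was an _x_at set. Rpl35, beside the exit tunnel, had 5 detected sets and 1 below the bound, 1454833_at, at 7.7, 4.3, 7.7 and 9.8. Rps24, whose messages end in alternative short exons, had 4 detected _x_at sets, the brightest at 580.4, 831.1, 771.6 and 1148.9, and both _at sets between 0.3 and 9.7. In both genes every set other than _at was detected. Rps3, at the entry of the messenger channel, had 1435151_a_at at 811.8, 729.5, 1041.0 and 1642.5 and 1447563_at at 1.5, 2.1, 9.1 and 11.6. Rps9 had 1434624_x_at at 1117.6, 881.8, 1252.1 and 1889.5 and 1426958_at at 7.5, 4.0, 5.1 and 6.3. Rps10 had 5 detected sets, and 1436384_at below the bound at 7.7, 2.0, 12.6 and 2.8. In these genes too the dim set was an _at set. Rpl27a, a large subunit protein mutated in the sooty foot ataxia mouse, had only _at sets, 1437729_at above the bound at 331.2, 297.6, 257.1 and 346.2 and 1419799_at below it at 5.1, 0.7, 6.5 and 8.9. The remaining genes of this kind were Rps6 and Rpl37a.

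Some probe sets were listed under the same transcript record, but where their probes lie on it was not known here. The ratio of the 3′ to the 5′ control probe set of actin, described further below, ran from 9.86 to 35.3. Whether probe position bears on sets that share a record was not tested. There were 11 such records, each carried by 2 of the 22 probe sets concerned. In 7 of them both sets were detected or both stayed below the bound throughout, and in 2 of them, those of Rpsa and Rpl37a, 1 set was detected and the other stayed below throughout. Both sets of Rpl41, the shortest ribosomal protein, that share a record behaved alike in single samples. Set 1433530_at gave 5.4, 14.3, 9.0 and 97.2, and set 1454639_x_at gave 18.9, 26.7, 9.4 and 152.2. Both passed the bound in sample 2-2 alone. The other sets of Rpl41 were detected, with 1422623_x_at at 524.3, 567.4, 758.0 and 779.3.

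The 9 genes with no detected probe set each had 1 probe set, and all 9 were _at sets. Of the 15 genes measured by _at sets alone, 6 had a detected set, and of the 34 genes with another kind of set, all 34 did. Rps16, a protein of the small subunit, was at 0.6, 1.7, 1.5 and 1.0. Rpl12, at the base of the stalk that recruits elongation factors, was at 5.0, 35.0, 43.5 and 18.9. Rpl39, a small protein lining the exit tunnel, was close below the bound at 45.2, 42.0, 42.2 and 52.7. These 3 are general parts of the ribosome, and no sample of their single sets reached the bound. This does not show that the genes were silent. Probe sets with several symbols, described at the end, were not read for them. Rps27, a zinc-finger protein of the small subunit, was also below on every array, at 45.6, 26.4, 10.1 and 28.4.

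In 3 of the 9 genes some arrays passed. Rps25, a protein known for its part in starting translation at internal sites, was at 106.2 and 99.4 in animal 1 and at 25.3 and 3.9 in animal 2. It lay above the bound on both arrays of animal 1 and on none of animal 2. Rpl14 was at 28.1, 87.1, 1.5 and 0.4, above the bound in sample 1-2 only and lower in both samples of animal 2 than in both of animal 1. Rps4l, a copy related to Rps4x, was at 56.2, 38.2, 3.2 and 89.6, above the bound in sample 2-2 only and with sample 2-1 far below the rest. Each of these patterns rests on 1 probe set.

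**Figure D2:**
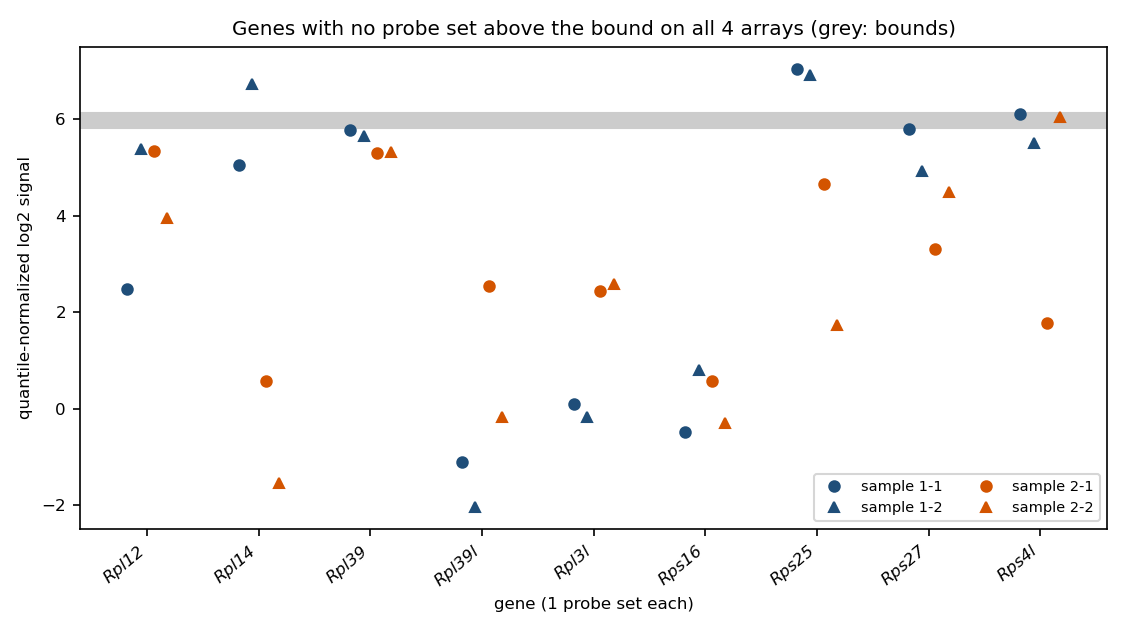
Quantile-normalized log2 signal in each sample (circles and triangles for the first and second sample, blue for animal 1 and orange for animal 2) for the 9 ribosomal protein genes with no detected probe set; the grey band spans the background bounds. Rps25 passes in both samples of animal 1 and neither of animal 2, and Rpl39l, Rpl3l and Rps16 stay far below the band in all 4 samples.

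The paralogs named after a canonical ribosomal protein divided into those with a signal and those without. Of 9 such genes 6 were measured, 3 were detected, and 2 were below the bound on every array. Rpl39l, the copy of Rpl39 known from testis, was at 0.4, 0.2, 5.8 and 1.1, and Rpl3l, the copy of Rpl3 known from muscle, at 0.9, 0.8, 5.4 and 7.2. All values of both were far below the bound. Rpl22l1, the copy of Rpl22, was detected at 709.2, 558.1, 720.3 and 832.3 (9.44 ± 0.12, SD, n = 2 animals). Rps27l, the copy of Rps27 induced by p53, was detected on all 3 of its sets. The brightest, 1435429_x_at, was at 123.0, 110.5, 201.9 and 189.0. Set 1423254_x_at is of the same suffix, and whether either catches RNA of Rps27 was not tested. Set 1450925_a_at lay at normalized log2 levels from 6.29 to 6.59, close above the bounds. Closer still was 1423254_x_at in samples 1-1, 1-2 and 2-1, at 6.18, 5.96 and 6.00, against bounds of 6.13, 5.85 and 5.97. Rpl7l1, a copy of Rpl7 involved in ribosome assembly, was at 115.0, 131.1, 273.2 and 136.3 on its brightest set. In the pair Rps27 and Rps27l, then, only the copy had single-symbol sets above the bound. A start window of each gene held a tract, but that of Rps27l lay wholly before the annotated start. The other window of Rps27l held none. Over all matched genes, 20 of 35 detected and 5 of 8 others had a tract.

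The members chosen for known roles were next described in order of those roles, on their brightest probe set. There were 27 of these, of which 22 were measured, while Rplp1, Rps27a, Rpl3, Rpl5 and Rpl10 had no match among the members and were not analysed here. In the stalk, Rplp0, its base protein, was at 303.7, 168.6, 438.8 and 441.0 (8.31 ± 0.29, SD, n = 2 animals). Rplp2, a partner that binds elongation factors, was at 1077.3, 1298.4, 2173.9 and 2505.7 (10.70 ± 0.37). Deposited signals of both were lower in animal 1 than in animal 2 without overlap, and normalized levels of Rplp0 overlapped. Also in the large subunit, Rpl38, known for its part in translating Hox messages, was at 4000.1, 3995.4, 5638.4 and 6230.9 (12.24 ± 0.09).

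Rpl10a and Rpl22 are the proteins most often tagged to pull ribosomes out of chosen cells. Rpl10a was at 1255.4, 1255.8, 2097.6 and 2042.6 (10.65 ± 0.18). Rpl22 was at 934.7, 891.3, 1302.5 and 1382.5 on 1453118_s_at (10.11 ± 0.08). Both were above the bound in every sample. Rpl11, which binds Mdm2 when assembly fails, was at 611.3, 767.2, 519.4 and 1097.7 (9.50 ± 0.25), and its animals overlapped. Rpl13a, known as a brake on translation in inflammation, was at 992.8, 1157.7, 2241.9 and 2929.6 (10.69 ± 0.57) and had the smallest p of all members in the comparison of animals.

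In the small subunit, Rps6, the target of the S6 kinases that is widely used as a readout of TOR activity, was at 132.8, 112.1, 92.0 and 151.4 (6.91 ± 0.45), and its deposited signals overlapped between animals while its normalized levels were lower in both samples of animal 2. Rps19, the gene most often mutated in Diamond-Blackfan anaemia, was at 189.6, 179.9, 157.6 and 341.3 (7.69 ± 0.17). Rps14, known from a form of myelodysplasia, was at 2835.0, 3298.8, 4283.9 and 5441.0 (11.91 ± 0.18). The deposited signals of Rps14 were higher in both samples of animal 2 than in both of animal 1, and those of Rps19 overlapped. Rps15, needed for export of the small subunit, was at 824.3, 1026.1, 1418.3 and 1435.3 (10.16 ± 0.13). Rps28 was at 4512.8, 4533.2, 5707.7 and 5829.6 (12.32 ± 0.07) and Rps29 at 6202.5, 6581.9, 7492.4 and 8380.3 (12.80 ± 0.06). After normalization the 4 samples of Rps28 lay between 12.18 and 12.37 and those of Rps29 between 12.75 and 12.90.

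The second comparison set animal 2 against animal 1, which carry the same labels, so it describes these animals. With limma, 78 member probe sets that passed the bound on 2 or more arrays were tested among 10386, and 0 were called at a false discovery rate of 0.05. Over all probe sets tested 25 were called higher (0.241%) and 17 lower (0.164%). An unadjusted p under 0.05 was found for 13 members, 10 of the large and 3 of the small subunit and 11 of them higher in animal 2, and for 1880 of all probe sets tested. Of the members tested 52 were higher and 26 lower in animal 2 (66.7% higher, against 46.4% of all tested). The members' median difference was 0.11 on the log2 scale, with quartiles of -0.04 and 0.31, against -0.05, with quartiles of -0.47 and 0.36, over all tested. The middle of the members' differences was thus narrower than that of all probe sets.

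The direction was uneven between subunits. In the large subunit 30 of 37 tested probe sets were higher in animal 2, with a median difference of 0.17, and in the small subunit 22 of 41, with a median of 0.06. All such counts take the sets of 1 gene separately, such as 5 of Rpl35, all higher, and 3 of Rps29, all lower. They are therefore not counts of independent genes. Both samples of animal 2 were above both of animal 1 in 28 members, where 23.8% of all tested probe sets were, and below in 8 members, where 25.9% of all were. On the deposited scale, with no normalization, 73 of the 78 were higher in animal 2, with a median difference of 0.57, but the median over all tested probe sets was itself 0.47 there. On that scale 11 members were called, all higher, of 629 higher and 9 lower calls over all probe sets. Relative to all tested probe sets, the members' median difference was 0.10 as deposited and 0.16 after quantile normalization.

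**Figure D3:**
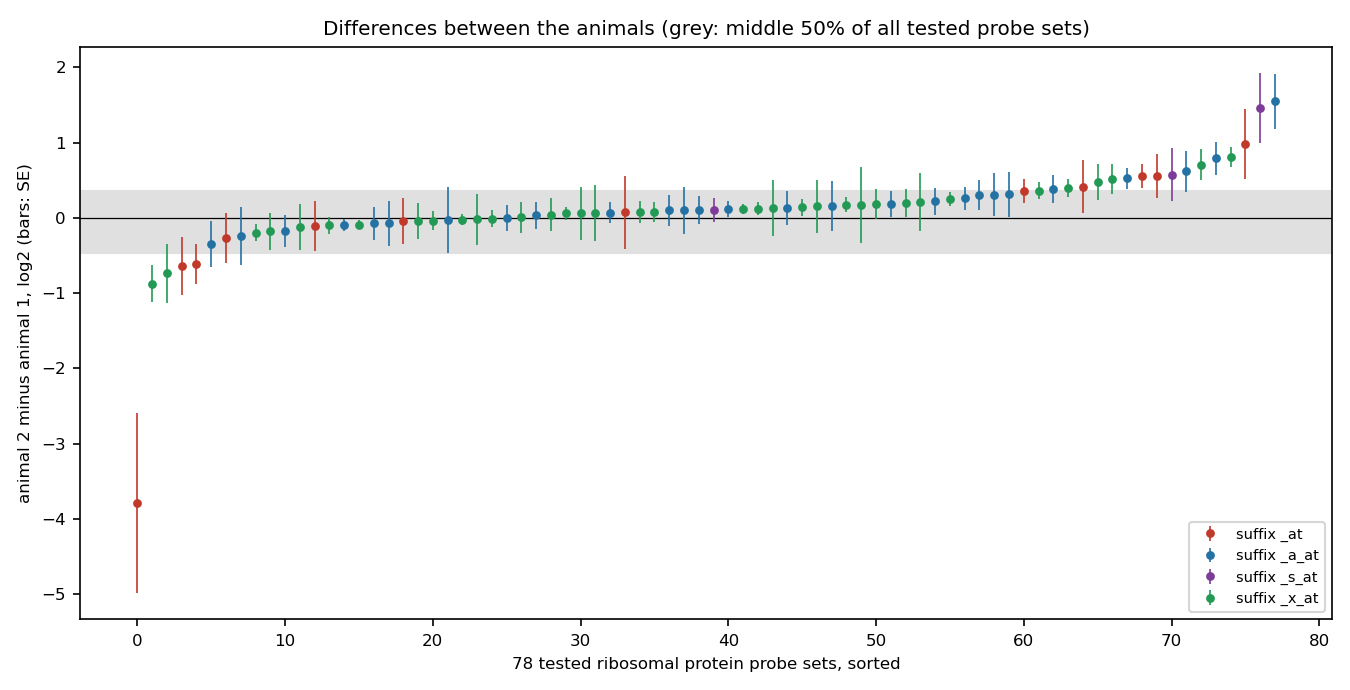
Difference between animals (animal 2 minus animal 1, quantile-normalized log2) for the 78 tested ribosomal protein probe sets, sorted, with bars for the SE of the limma fit and colours for the name suffix; the grey band runs from the lower to the upper quartile of all 10386 tested probe sets (-0.47 to 0.36). Most members lie inside the band, 52 lie above 0, and Rps25 at -3.79 stands apart at the lower end. Rps25 entered the test through its arrays of animal 1 alone.

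The 5 probe sets with the smallest p among those higher in animal 2 belonged to 4 large subunit genes, and none passed the threshold. Rpl13a set 1455485_x_at differed by 0.81 ± 0.14 (SE, limma, adjusted p = 0.0690), with the signals given above. Its set 1417608_a_at was at 82.5, 114.8, 311.9 and 564.0 and differed by 1.55 ± 0.36 (limma, adjusted p = 0.121). In both sets the animals did not overlap. Rplp2 differed by 0.52 ± 0.14 (limma, adjusted p = 0.151). Rpl8, which lies near the catalytic centre, was at 408.8, 384.4, 786.1 and 1174.4 and differed by 0.79 ± 0.22 (limma, adjusted p = 0.154). Rpl19, which bridges the subunits, was at 670.9, 708.4, 1291.5 and 1479.0 and differed by 0.55 ± 0.16 (limma, adjusted p = 0.165). All of these had both samples of animal 2 above both of animal 1. The call on Rpl13a set 1455485_x_at changed with the settings. Its adjusted p in limma was 0.0320 when only detected probe sets were tested and 0.0491 with median centring, and ran from 0.0234 to 0.531 over the alternatives tried. It was called without sample 2-1 and without sample 2-2, where the lone sample of animal 2 was assumed to vary like the others, and not without sample 1-1 or without sample 1-2 (adjusted p in limma of 0.531 and 0.398).

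In the other direction the values were mixed. Rpl41 set 1455578_x_at was at 541.4, 438.6, 347.4 and 423.7, lower in both samples of animal 2, and differed by -0.87 ± 0.25 (limma, adjusted p = 0.161). Rps25 differed by -3.79 ± 1.19 (limma, adjusted p = 0.184). Its set passed the filter only on the arrays of animal 1, where it was high, so entry to the test depended on the difference itself. Its p-values under that filter are therefore no support for a difference. As its probe set was below the bound on both arrays of animal 2, animal 1 was also set against that bound. The mean of 6.98 in animal 1 was 2.13-fold above 5.89, the mean of the bounds in animal 2, where the measured mean was 3.19. As the difference was not called, this ratio is not an established minimum. Without sample 2-1 and without sample 2-2 Rps25 was called, at -5.16 and -2.31, with the lone sample of animal 2 assumed to vary like the others, and its adjusted p in limma ran from 0.0217 to 0.368 over the alternatives tried. Rpl27a set 1437729_at differed by -0.61 ± 0.27 (limma, adjusted p = 0.295). Its normalized levels did not overlap while its deposited signals did. Rps2, at the messenger's entry, was at 483.1, 754.4, 678.0 and 397.8 and differed by -0.73 ± 0.39 (limma, adjusted p = 0.375). Rps29 set 1437413_x_at differed by -0.19 ± 0.11 (limma, adjusted p = 0.392), and this sign turned to 0.22 as deposited. The animals overlapped in Rps2.

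**Figure D4:**
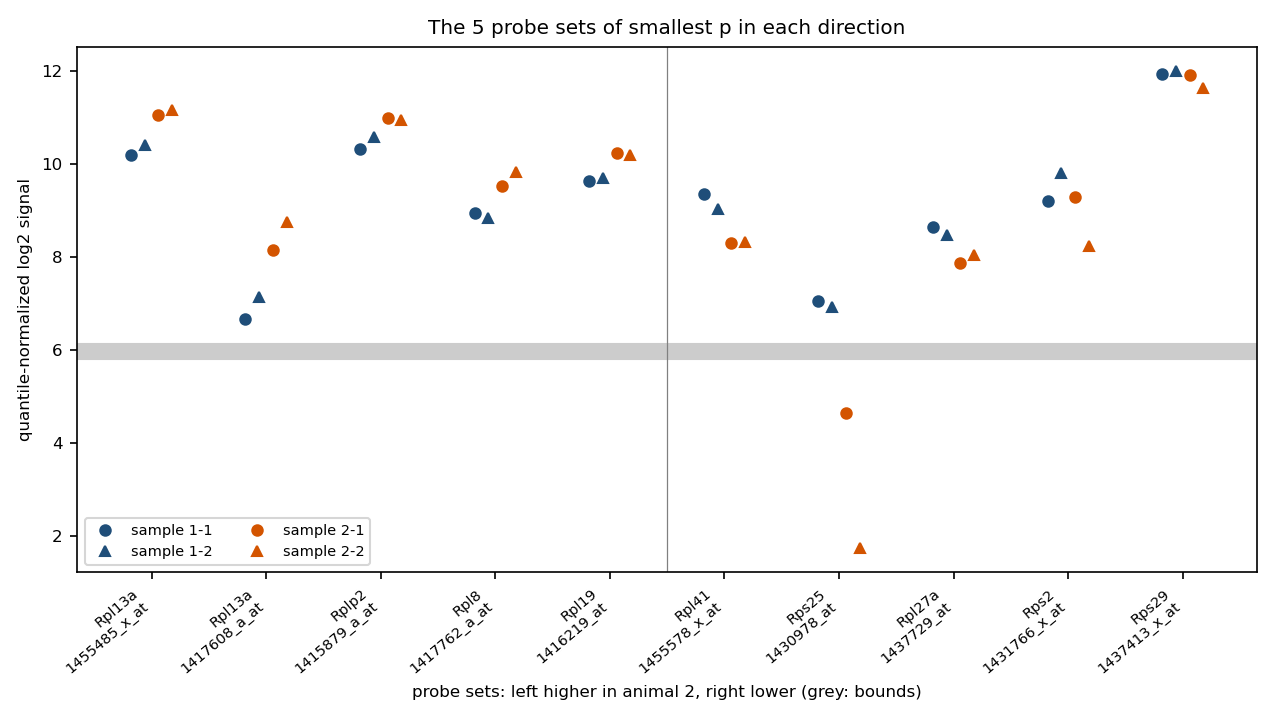
Quantile-normalized log2 signal in each sample (circles and triangles for the first and second sample, blue for animal 1 and orange for animal 2) of the 5 member probe sets with the smallest p among those higher in animal 2 (left) and the 5 among those lower (right), with the background bounds in grey. In the 5 on the left both orange marks lie above both blue marks, and Rps25 falls below the band in animal 2.

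Probe sets of 1 gene did not always give 1 difference between the animals. Of 20 genes with at least 2 tested probe sets, 12 had differences of 1 sign only and 8 had both signs, and the median range within a gene was 0.33. The range was over 0.5 in 6 genes. In Rpl13a the 4 sets ran from 0.04 to 1.55, all higher in animal 2. In Rpl22 they ran from -0.11 to 1.46, although the sets at both ends, 1416603_at and 1448398_s_at, were listed under the same transcript record. The former was at 139.9, 176.5, 178.2 and 267.3, and the latter at 96.6, 90.4, 223.5 and 648.4, bright in sample 2-2. In Rpl41 they ran from -0.87 to 0.01. By contrast Rps10, with 5 tested sets, ran only from 0.03 to 0.22, and Rpl7, with 3, from 0.06 to 0.14. A difference read from a single probe set was thus shared by the other sets in some genes and not in others.

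Other measures moved with the animals and are given beside these differences. The summed normalized signal of 19 granule cell genes was 5700 and 6624 in the samples of animal 1 and 3154 and 3143 in those of animal 2, with 10 of its 11 tested genes lower in animal 2 and 7 of the 19 below the bound on every array. Of the 11 none was called by limma, and 8 had an unadjusted p under 0.05, of which 1, Kcnd2, was higher in animal 2. That of 18 Purkinje cell genes was 92678, 92349, 101713 and 100963, with 2 called higher, Icmt at 1.30 ± 0.14 and Pcp2 at 0.57 ± 0.07 (SE, limma, adjusted p = 0.0364 and 0.0403). The summed signals of 17 Bergmann glia and astrocyte genes were 16789, 16616, 13765.5 and 12706, those of 14 oligodendrocyte genes 5442, 5229, 4726 and 3523, those of 14 vessel genes 956, 1073, 649 and 546, and those of 13 microglia genes 299, 249, 168 and 202. In each of these lists both samples of animal 2 were lower than both of animal 1. Those of 13 interneuron genes were 5689, 5997, 7002 and 6743, higher in both samples of animal 2. No gene of these lists was called by limma, and an unadjusted p under 0.05 was found for 4 of 14 tested glia genes, 1 of 4 oligodendrocyte, 2 of 3 vessel, 1 of 1 microglia and 5 of 7 interneuron genes. All of these were lower in animal 2 except 3 of the interneuron genes. The ratio of the 3′ to the 5′ control probe set of actin, a measure of how far labelled RNA reached, was 35.3, 28.1, 9.86 and 24.6, lowest in sample 2-1. The same ratio of Gapdh was 11.4, 9.09, 6.26 and 8.45. The part of these in the ribosomal differences was not tested.

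The third comparison was of the spread between samples. Over the detected members, the median absolute difference between samples was 0.18 within animal 1 and 0.18 within animal 2, and from 0.22 to 0.24 in the 4 pairs between animals. Over all detected probe sets it was 0.21 within animal 1, 0.35 within animal 2 and from 0.40 to 0.41 between animals. The members differed less than all probe sets in each of the 6 pairs, and their level, which also bears on spread, was not matched. Of the detected members, 28 had their highest normalized level in sample 2-1 and 27 in sample 2-2, against 8 in 1-1 and 13 in 1-2. The same count over all detected probe sets was not made. The members' median deviation from their mean over samples was -0.10, -0.05, 0.09 and 0.05 in samples 1-1, 1-2, 2-1 and 2-2. Over all detected probe sets it was 0.018, 0.011, -0.002 and 0.0005.

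The other genes of the translation machinery were measured for comparison, each on its brightest probe set. Of 40 translation factor genes 34 were measured, and all 34 were detected. Their median difference between animals was -0.03, with 15 higher, 19 lower and 0 called, and 7 at an unadjusted p under 0.05. The smallest p belonged to Eif5a, an elongation factor, at 0.54 ± 0.11 (SE, limma, adjusted p = 0.10), Eif4e, the cap-binding protein, at -0.91 ± 0.21 (limma, adjusted p = 0.116), and Eif3c, an initiation factor subunit, at -0.69 ± 0.17 (limma, adjusted p = 0.127). Of 30 ribosome assembly genes 18 were detected, with a median difference of 0.23 over 21 tested. The nearest to the threshold were Gar1 at 1.66 ± 0.37, Fbl, the fibrillarin gene, at 1.91 ± 0.52, and Nop56 at 1.09 ± 0.31 (limma, adjusted p = 0.111, 0.151 and 0.163), all components of small nucleolar ribonucleoproteins. Of 16 measured genes of TOR signalling 9 were detected, with a median of 0.34 over 11 tested. Mtor itself differed by 1.28 ± 0.30 (limma, adjusted p = 0.121), Rictor by 0.72 ± 0.27 and Pdcd4 by -0.69 ± 0.27 (limma, adjusted p = 0.238 and 0.244). None of these lists held a called gene, with 4 of the assembly genes and 3 of the TOR genes at an unadjusted p under 0.05. Fau, which encodes a small subunit protein fused to a ubiquitin-like one, was the measured gene of 3 such fusions, at 244.1, 260.1, 417.4 and 685.4 and with a difference of 0.55 ± 0.27 (limma, adjusted p = 0.345).

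Mitochondrial ribosomal proteins, the counterpart in the organelle, were covered by 156 probe sets of 76 genes. Of these probe sets 82 (52.6%) and of these genes 60 were detected, and 103 were tested with 0 called by limma and 15 at an unadjusted p under 0.05. Of these 47 were higher in animal 2 and 56 lower, with a median difference of -0.04. The share of detected probe sets was 75% for the large and 70.2% for the small cytosolic subunit.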

How the data were processed

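RNA of 4 samples of mouse Purkinje cells was hybridized to Affymetrix arrays. The authors deposited linear intensity values, 1 for each probe set on each array, which came from GCOS, per the submitters' processing notes. Its version, its signal algorithm and its scaling were not given in the sources used here. A single value, 1 in all, was listed as 0. Gene symbols came from the platform annotation supplied with the data: 34945 had 1 symbol, 932 several, 9160 none there and 64 were controls. Symbols were checked in a RefSeq table of GRCm38.p6, and 0 needed an update.

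Controls were dropped, a floor of 0.1 was set and values were turned to log2. Because the 2% trimmed means of the arrays differed by 47.7%, above a tolerance of 5%, quantile normalization was applied in limma 3.58.1 (R 4.3.3). The bound was, on each array, the 95th percentile over the 74 measured of 82 genes specific to other organs, each at its brightest probe set, of which 3 were themselves above it on all 4 arrays. Animals were compared by lmFit and eBayes (trend option on) over probe sets that passed the bound on 2 or more arrays. This left 2 residual degrees of freedom, and Benjamini-Hochberg adjustment was over all probe sets tested. The fit was tested on simulated data, where it called 34% of 100 probe sets given a 2-fold change and 87% of 100 given a 4-fold change. Means were taken within animals first.

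The members and lists were chosen with earlier results of these data known. The probe sets named were those called or, with fewer than 6, the 5 of smallest p each way, genes without a detected set, the 10 genes with the widest disagreement between sets, and 27 genes chosen for known roles. Of other lists the called genes and up to 3 with the smallest p were named. Rpl37a, the other sets of Rpl22 and Rpl41, Rpl7 and Kcnd2 were named after their values were seen. The alternatives were other normalizations, bounds, filters and offsets, a fit without trend, sets of fewer suffixes, and leaving out each sample. Array probe sequences and protein sequences were not used here.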

Additional observations from a re-analysis of the deposited data

Results flagged for a closer look

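Among 72 probe sets named or described, 4 had 1 sample farther from the other three than Dixon's 95% limit allows for 4 values. Chance gives about 1 in 20 groups such a sample. Rps4l set 1452730_at was at 1.77 in sample 2-1, against 5.50 to 6.11 in the other samples, with a gap of 0.860 of the range. Rpl27a set 1419799_at, below the background bound throughout, was at -0.34 in sample 1-2, against 2.50 to 2.89 (0.877). Rpl22l1 set 1417126_a_at was at 9.72 in sample 1-1, against 9.33 to 9.39 (0.839). Rps28 set 1451101_a_at was at 12.18 in sample 2-2, against 12.35 to 12.37 (0.902), where its deposited signal of 5829.6 was the highest of the 4 samples.

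Outside the members, 110 probe sets carried several gene symbols of which at least 1 was that of a ribosomal protein. Of these 90 passed the bound on all 4 arrays and 18 on none, where 19.3% of all probe sets with 1 symbol were detected. The share over all sets with several symbols was not counted. They carried 43 ribosomal symbols, 28 of which no member carries, so that these genes are seen on the arrays only through sets that cannot be given to 1 gene. Of these sets 91 were tested between animals and 0 were called by limma, with a median difference of 0.23. An unadjusted p under 0.05 was found for 29 of them, and for 1880 of all 10386 probe sets tested.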

How the results depend on the processing

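The count of detected probe sets was 76 and became 37 without _s_at and _x_at sets. Under the other bounds, normalizations and left-out samples it stayed between 66 and 78, the count of genes between 36 and 41, and the count of genes whose sets disagree between 10 and 13. Members called between animals numbered 0, with 11 on the deposited scale, 1 with median centring, 1 when only detected sets were tested and 1 under a bound at the 99th percentile, chosen after seeing the data. The single call was Rpl13a set 1455485_x_at each time. Leaving out 1 sample gave 0 to 6 called members, 6 without sample 2-1 and 2 without sample 2-2. Members higher in animal 2 numbered 52 of 78, and 25 of 39 without _s_at and _x_at sets. The median difference of 0.11 became 0.57 as deposited and 0.27 with median centring, and 0.10 to 0.14 with 1 sample left out. The median over all tested sets moved as well, to 0.47 and 0.17. Differences between samples rose as deposited to 0.31 within animal 2 and 0.60 between animals, and with median centring to 0.33 between animals. The difference of Rps29 set 1437413_x_at reversed to 0.22 as deposited. Causes were not tested. Calls over all probe sets, 42 of 10386, numbered 638 as deposited (629 higher), 98 with median centring (85 higher), 5 with no filter, 0 without a trend, 2 without sample 1-2, 6 without sample 1-1, 705 without sample 2-1 and 918 without sample 2-2. No paired analysis was possible because there was 1 group, and sample numbers within an animal are only names. With 2 animals and unknown scaling, small differences could not be resolved, and in simulated data most 2-fold changes were not called either.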
